A study of Homo sapiens with 7 samples.

Results

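The genes described here are 10 transcription factors of T-lineage commitment: TCF7, LEF1, BCL11B, SATB1, TOX, TOX2, IKZF1, IKZF2, IKZF3 and RUNX3. Each was taken as the row whose gene symbol equals that name, which gave 10 of the 60662 genes measured. Total RNA was sequenced in 7 libraries from PF-382 and MOLT-14, both human lines of T-cell acute lymphoblastic leukaemia (T-ALL). PF-382 gave 3 STAG2 knockout libraries (Cas9 with guide RNA, delivered as ribonucleoprotein, RNP) and 2 libraries of untreated wild type. MOLT-14 gave 1 library after transduction of STAG2 and 1 after transduction of empty vector. STAG2 is a subunit of cohesin, the ring that holds and loops chromatin. The labels do not say whether the knockout libraries are separate clones, pools or cultures, nor which promoter drives the STAG2 transgene, so p-values measure the spread between these libraries, which may be technical.

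T-lineage commitment is the loss of other blood fates by a thymic progenitor after Notch signalling. TCF7 and LEF1 are HMG-box factors that open T-lineage chromatin and bind beta-catenin and Groucho/TLE corepressors. BCL11B is the zinc-finger factor that closes the step, SATB1 organises chromatin at thymocyte genes, and TOX is needed for the CD4 lineage in mice. IKZF1 (Ikaros), IKZF2 (Helios) and IKZF3 (Aiolos) share zinc fingers and recruit histone deacetylase complexes, and RUNX3 is a RUNX factor known for silencing CD4 in CD8 cells. Several of these genes, among them IKZF1, LEF1 and BCL11B, are recurrently mutated in T-ALL.

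The libraries held 65262329, 93970572 and 81304948 counts in knockout cells and 32609485 and 33145516 in wild type, so each knockout library was deeper than each wild-type one. The MOLT-14 libraries held 45013450 counts with STAG2 and 38678382 with the empty vector. Small RNA genes took 11.96% to 13.98% of the counts in knockout and 14.87% and 20.97% in wild type. STAG2 RNA was 256, 180 and 195 CPM (read counts relative to the scaled depth of the library) in knockout, against 334 and 567 CPM in wild type, a log2 change of -1.13 ± 0.26 (SE, adjusted p 0.0218 in edgeR's quasi-likelihood test). The STAG2 call was lost without the second (adjusted p 0.0757) or the third knockout library (0.0773) and with a term for the prefix of the sample names (0.199), and the change was -0.67 without the second wild-type library. In MOLT-14 it was 136.9 CPM with STAG2 and 1.15 CPM with the empty vector. STAG1, the alternative subunit, was 138 to 142 CPM in knockout and 49.8 to 56.6 CPM in wild type (log2 change 1.36, adjusted p 0.00222). The summed level of 7 T-ALL markers (PTPRC, CD3E, CD3D, CD7, CD2, CD5 and LCK), all detected, was 2002 to 2259 CPM in knockout, 2163 to 2341 CPM in wild type and 1879 to 2096 CPM in MOLT-14. LCK was the highest by the mean over all 7 libraries, and single markers differed more than the sum. Their log2 changes were -0.95 to 1.34 in knockout over wild type and -4.06 to 1.06 in PF-382 over MOLT-14.

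RefSeq start sites (GRCh38.p14) were matched for 8 members, all but TOX and IKZF3, with 17 promoter windows running from 250 bases before to 50 bases after each start. The windows of LEF1, RUNX3 and BCL11B are shown because LEF1 and RUNX3 fell in the knockout, while BCL11B was the member whose values lay higher in every knockout library. Each is printed 5′ to 3′ on the gene's own strand, with capitals marking matches on either strand to a RUNX motif (TGTGGT) or an Ikaros motif (TGGGAA). The LEF1 window lies at chr4:108166252-108166551 on the minus strand. It is inside the annotated gene, whose 5′ end is at 108168956, so its start is an internal one. No window covered the 5′ end of LEF1, and motifs there were not examined. The distal RUNX3 start lies at chr1:24964961-24965260 and the proximal one at chr1:24930227-24930526, both on the minus strand. The BCL11B window lies at chr14:99272148-99272447 on the minus strand. It lies wholly before the annotated gene, whose 5′ end is at 99271524, so motifs at that 5′ end were not examined.
LEF1: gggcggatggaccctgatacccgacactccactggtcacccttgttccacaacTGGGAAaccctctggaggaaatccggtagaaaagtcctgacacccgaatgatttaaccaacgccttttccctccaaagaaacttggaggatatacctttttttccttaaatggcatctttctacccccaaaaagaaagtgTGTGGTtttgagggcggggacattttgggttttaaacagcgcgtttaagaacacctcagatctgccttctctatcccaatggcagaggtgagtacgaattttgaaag
RUNX3 distal: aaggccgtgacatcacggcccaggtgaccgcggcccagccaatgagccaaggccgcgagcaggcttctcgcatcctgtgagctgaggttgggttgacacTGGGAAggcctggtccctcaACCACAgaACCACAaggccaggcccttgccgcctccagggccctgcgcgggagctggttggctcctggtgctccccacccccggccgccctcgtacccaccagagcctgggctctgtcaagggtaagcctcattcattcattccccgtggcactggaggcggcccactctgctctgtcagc
RUNX3 proximal: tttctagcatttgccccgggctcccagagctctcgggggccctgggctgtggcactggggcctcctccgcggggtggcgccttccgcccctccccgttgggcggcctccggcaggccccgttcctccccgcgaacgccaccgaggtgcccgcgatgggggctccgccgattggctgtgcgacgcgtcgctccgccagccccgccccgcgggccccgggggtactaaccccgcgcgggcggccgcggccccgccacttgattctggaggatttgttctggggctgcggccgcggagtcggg
BCL11B: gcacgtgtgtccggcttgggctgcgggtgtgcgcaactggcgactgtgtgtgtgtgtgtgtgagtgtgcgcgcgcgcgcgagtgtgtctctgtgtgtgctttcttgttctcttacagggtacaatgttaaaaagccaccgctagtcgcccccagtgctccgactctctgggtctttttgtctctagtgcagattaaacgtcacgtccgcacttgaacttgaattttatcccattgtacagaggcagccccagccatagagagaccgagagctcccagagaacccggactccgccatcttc
The LEF1 window held 1 RUNX match, beginning 57 bases before this internal start, and 1 Ikaros match, with 9 CpG dinucleotides and 47.0% GC. The distal RUNX3 window held 2 RUNX matches, 131 and 123 bases before the start, and 1 Ikaros match, with 15 CpG. The proximal RUNX3 window held neither motif and was far richer in CpG, with 38 CpG and 76.0% GC. The BCL11B window also held neither, with 20 CpG. Over the 17 windows, 5 held a RUNX match and 5 an Ikaros match, against 13.1% and 24.0% of 35116 promoter windows of the same length. The other RUNX matches lay at IKZF2, SATB1 and IKZF1, and the other Ikaros matches at TCF7, IKZF1 and TOX2. None of these genes was called in the knockout. A TCF/LEF motif (CTTTGA) was in 1 member window, at IKZF2, and a GATA motif (AGATAA) in 1, at IKZF1, against 12.9% and 10.3% of all windows. The windows of 1 gene are alternative starts of that gene and are not independent, and a match describes letters only.

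In PF-382, LEF1, TOX and RUNX3 fell in STAG2 knockout cells, and the other 7 members did not pass the test. Of all 17442 genes tested, 30.4% were called in either direction (adjusted p under 0.05 over all genes) and 14.6% were called lower, so 3 of 10 members called is a share near that of all genes. The members' median log2 change was -0.32, against -0.02 over all genes. The knockout and wild-type values did not overlap for 6 members, LEF1, SATB1, TOX, IKZF1 and RUNX3 lying lower in knockout and BCL11B higher. That too is near the 60.0% of all genes without overlap, with 28.3% lower and 31.8% higher in knockout. In bulk RNA, fewer cells of a type and less RNA per cell cannot be told apart. Another scaling, by the upper quartile, set the median of all genes at -0.18 and called 5 members, all lower, adding SATB1 and IKZF1. It split the 5390 called genes into 1824 higher and 3566 lower, against 2763 higher and 2548 lower with TMM scaling.

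**Figure D1:**
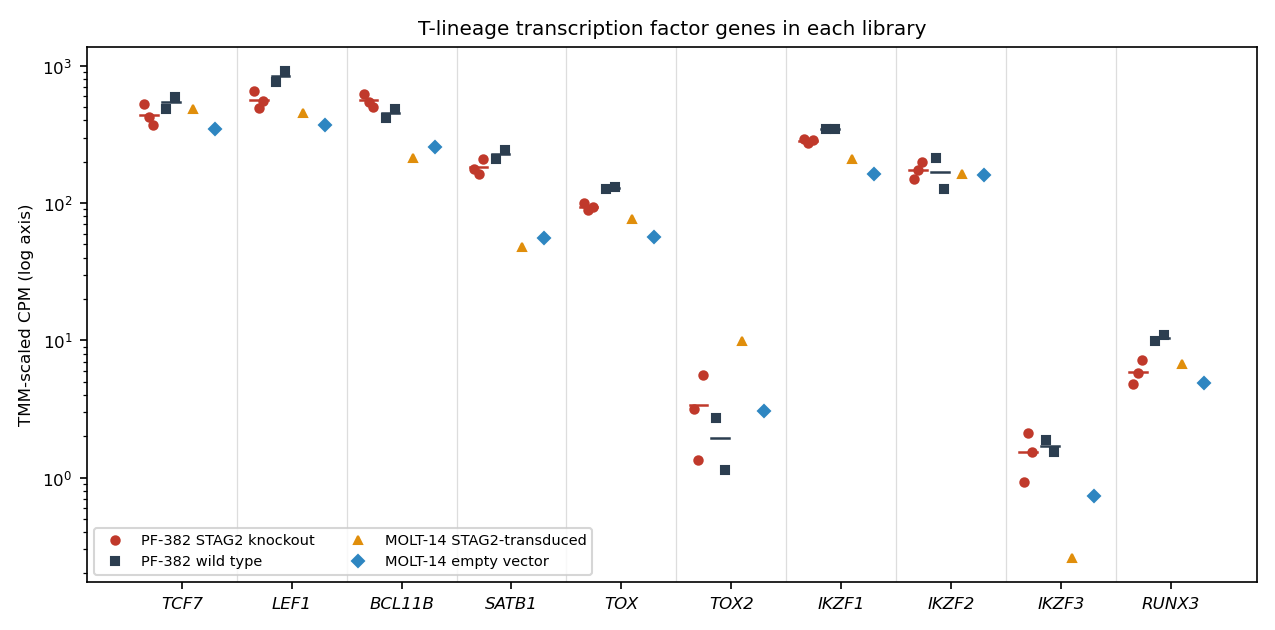
Level of each member in each library, in CPM on a log axis, with PF-382 STAG2 knockout, PF-382 wild type, MOLT-14 with STAG2 and MOLT-14 with the empty vector from left to right. Points are libraries and short lines are means of the PF-382 groups. LEF1, TOX and RUNX3 are lower in every knockout library than in both wild-type libraries, and BCL11B is higher.

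LEF1 (ENSG00000138795.10, GRCh38 chromosome 4, 108047545 to 108168956) was 654.7, 490.1 and 558.3 CPM in knockout, against 763.2 and 912.1 CPM in wild type. The highest knockout library lay below both wild-type libraries. The means were 568 ± 82.7 CPM in knockout (SD, n = 3) and 838 ± 105 CPM in wild type (SD, n = 2), a log2 change of -0.59 ± 0.17 (SE, adjusted p 0.0433, edgeR), or 1.50-fold lower. The call was lost when any 1 knockout library or the second wild-type library was left out (adjusted p 0.0580 to 0.147), and the log2 change over all 5 such fits was -0.71 to -0.43. TCF7 (ENSG00000081059.20, chromosome 5, 134114711 to 134151865), its closest relative among the members, was 529.3, 422.8 and 369.1 CPM in knockout and 486.2 and 596.3 CPM in wild type. The groups overlapped, and the log2 change of -0.32 ± 0.19 did not pass (adjusted p 0.238). The first knockout library was the highest of the knockout libraries for both genes.

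LEF1-AS1, a long noncoding RNA read from the opposite strand of the LEF1 locus, is named here after its values were seen. It was 4.37, 4.15 and 4.64 CPM in knockout, against 14.2 and 16.4 CPM in wild type, with a log2 change of -1.83 ± 0.18 (adjusted p 0.00276, and 0.0502 with a term for the prefix of the sample names). Relative to the LEF1 count of the same library it stood at 0.668% to 0.847% in knockout and 1.80% to 1.86% in wild type. In MOLT-14 it stood at 2.19% with STAG2 and 3.45% with the empty vector. The strand setting of the counting is not given in the sources used here, so reads of this overlapping pair cannot be assigned with certainty. The same holds for TCF7 and SKP1 on the opposite strand (309 CPM in knockout and 211 CPM in wild type, adjusted p 0.0764).

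BCL11B (ENSG00000127152.18, chromosome 14, 99169287 to 99271524) was 628.1, 545.5 and 504.1 CPM in knockout, against 414.3 and 488.5 CPM in wild type. Every knockout library lay above both wild-type libraries, though by a narrow margin at the nearest pair. The log2 change of 0.28 ± 0.16 did not pass (adjusted p 0.212). SATB1 (ENSG00000182568.17, chromosome 3, 18345387 to 18445588) was 177.9, 162.0 and 208.4 CPM in knockout, against 209.0 and 244.0 CPM in wild type. Its groups were separated by less than 1 CPM at their nearest values, and the log2 change of -0.34 ± 0.15 did not pass (adjusted p 0.134, and 0.0393 with upper-quartile scaling). SATB1 was the member with fractional counts, which arise where reads are shared with another gene, and TBC1D5 overlaps it on the same strand (166 CPM in knockout and 137 CPM in wild type).

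TOX (ENSG00000198846.6, chromosome 8, 58805418 to 59119208), an HMG-box factor, was 100.1, 88.4 and 93.1 CPM in knockout, against 127.6 and 131.7 CPM in wild type. The libraries were tight within each group and the groups stood well apart. The means were 93.8 ± 5.88 CPM in knockout (SD, n = 3) and 130 ± 2.89 CPM in wild type (SD, n = 2), a log2 change of -0.49 ± 0.11 (adjusted p 0.0199, edgeR), or 1.41-fold lower. Leaving out any 1 knockout library took it just past the threshold (adjusted p 0.0501 to 0.0880), and leaving out either wild-type library did not. Its relative TOX2 (ENSG00000124191.18, chromosome 20, 43914864 to 44069616) was 3.18, 1.34 and 5.57 CPM in knockout and 2.72 and 1.13 CPM in wild type. The libraries of a group differed among themselves by as much as the groups did (log2 change 0.77 ± 0.65, adjusted p 0.398).

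The Ikaros genes showed no called change in PF-382. IKZF1 (ENSG00000185811.19, chromosome 7, 50304068 to 50405101) was 291.8, 275.1 and 286.5 CPM in knockout, against 347.1 CPM in both wild-type libraries. The groups did not overlap, and the log2 change of -0.31 ± 0.11 fell short of the threshold with edgeR (adjusted p 0.0750), while DESeq2 gave an adjusted p of 0.00819. IKZF2 (ENSG00000030419.16, chromosome 2, 212999691 to 213152427) was 149.6, 174.5 and 200.6 CPM in knockout and 211.4 and 127.3 CPM in wild type. The wild-type libraries were its highest and its lowest, so all knockout values lay between them (log2 change 0.02 ± 0.23, adjusted p 0.956). IKZF3 (ENSG00000161405.17, chromosome 17, 39757715 to 39864188), typical of B cells and mature lymphocytes, was 0.933, 2.10 and 1.54 CPM in knockout and 1.88 and 1.52 CPM in wild type, which overlap (adjusted p 0.755).

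RUNX3 (ENSG00000020633.18, chromosome 1, 24899511 to 24965121) was 4.76, 5.74 and 7.15 CPM in knockout, against 9.91 and 10.85 CPM in wild type. It was scarce in every library and lower in each knockout library than in either wild-type library. The means were 5.89 ± 1.20 CPM in knockout (SD, n = 3) and 10.4 ± 0.664 CPM in wild type (SD, n = 2), a log2 change of -0.85 ± 0.23 (adjusted p 0.0342, edgeR), or 1.80-fold lower, the largest of the 3 called falls in this fit. The call was lost without any 1 knockout library or the second wild-type library (adjusted p 0.0531 to 0.108). The sample names carry the prefix SA or SB, whose meaning the labels do not give. Both wild-type libraries and the first knockout library have SA, and the other knockout libraries SB. With the prefix as a term 0 members were called, LEF1 at -0.38 (adjusted p 0.339), TOX at -0.39 (0.194) and RUNX3 at -1.14 (0.0988).

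**Figure D2:**
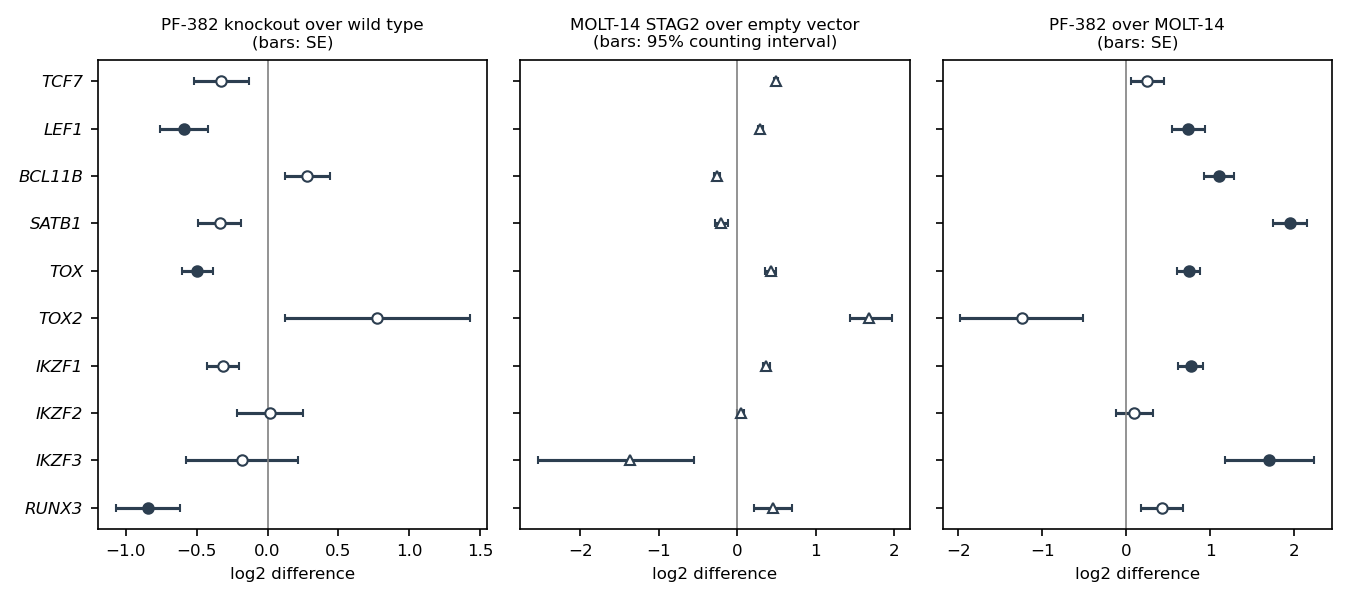
Log2 difference of each member in PF-382 STAG2 knockout over wild type (left) and in PF-382 over MOLT-14 (right), with standard errors from edgeR and filled points where the adjusted p passed, and in MOLT-14 with STAG2 over the empty vector (middle), with 95% binomial intervals that cover counting error only. LEF1, TOX and RUNX3 pass the test in the knockout comparison, and 6 members pass in PF-382 over MOLT-14.

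Since counts scale with the library total, ratios of members within a library are free of scaling. They were chosen after the values were seen and carry no test. The BCL11B count was 0.960, 1.11 and 0.903 of the LEF1 count in knockout, against 0.543 and 0.536 in wild type. Over TCF7 it was 1.19, 1.29 and 1.37 in knockout, against 0.852 and 0.819 in wild type. BCL11B thus had more counts than TCF7 in all 3 knockout libraries and fewer in both wild-type libraries. Counts also rise with transcript length, so this is not an order of transcript abundance. In TPM (transcript abundance corrected for transcript length), BCL11B lay below TCF7 in every library. The means were 31.3 against 87.8 TPM in knockout and 23.1 against 101 TPM in wild type. In counts, SATB1 over BCL11B was 0.283, 0.297 and 0.413 in knockout, against 0.504 and 0.499 in wild type. TCF7 over LEF1 was 0.808, 0.863 and 0.661 in knockout, against 0.637 and 0.654 in wild type, close at the nearest pair. IKZF1 over IKZF2, also computed, overlapped, at 1.95, 1.58 and 1.43 in knockout, against 1.64 and 2.73 in wild type. Of all single genes, 60.0% had no overlap between these groups, and no such share was computed for ratios.

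**Figure D3:**
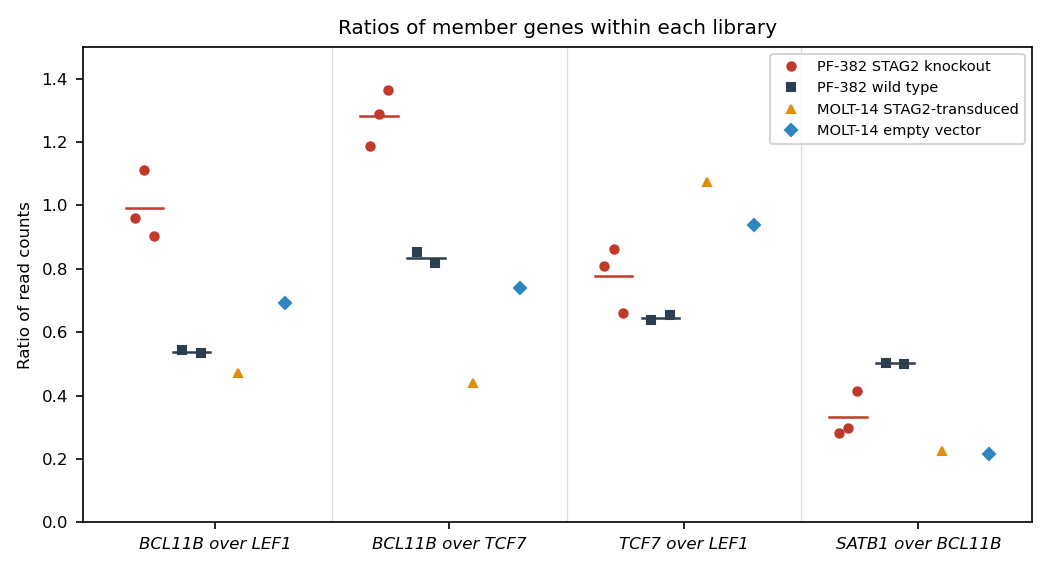
Ratio of the counts of a pair of members within each library. Points are libraries and short lines are means of the PF-382 groups, with PF-382 STAG2 knockout, PF-382 wild type, MOLT-14 with STAG2 and MOLT-14 with the empty vector from left to right. BCL11B over TCF7 is above 1 in the 3 knockout libraries and below 1 in the others. The counts are not corrected for transcript length.

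In MOLT-14, transduction of STAG2 went with small differences in most members, and 1 library of each kind allows no test. Of 14698 genes with at least 1 CPM, 4.11% differed at least 2-fold. Among the 9 members at that level 1 did, and the members' median log2 ratio was 0.37, against 0.01 over all genes. That member was TOX2, at 9.89 CPM with STAG2 and 3.07 CPM with the empty vector, a log2 ratio of 1.68 (95% exact binomial interval 1.43 to 1.97, for counting error only, as PCR copies are not separate molecules). TCF7 was 485.5 CPM with STAG2 and 348.3 CPM with the empty vector (log2 ratio 0.49), and LEF1 452.6 and 371.6 CPM (0.29). TOX was 75.99 CPM with STAG2 and 57.0 CPM with the empty vector (0.42), RUNX3 6.71 and 4.92 CPM (0.45) and IKZF1 209.4 and 163.2 CPM (0.37). BCL11B had the opposite sign, at 213.0 CPM with STAG2 and 257.1 CPM with the empty vector (-0.26), as did SATB1 at 48.06 and 55.71 CPM (-0.20). IKZF2 differed little, at 162.7 CPM with STAG2 and 159.1 CPM with the empty vector (0.04, interval -0.004 to 0.086, and -0.14 with total-count scaling, which set the median of all genes at -0.18). IKZF3 had 13 counts with STAG2 and 36 with the empty vector, below 1 CPM in both.

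The difference between the lines in the effect of lower STAG2 was tested for each gene in 1 fit of all libraries, in which the single MOLT-14 libraries are assumed to vary like the PF-382 ones. It was called for 0 of 10 members by edgeR, with 0 at an unadjusted p under 0.05 as well, against 0.607% of all genes called and 21.2% at the unadjusted threshold. The smallest adjusted p was 0.282, for TOX2. The SE of the log2 difference of effects ran from 0.20 for TOX to 1.18 for TOX2. A difference that was not called is not shown to be absent. With lower STAG2, 6 of the 9 members measured in both lines had the same sign in both, against 47.0% of all genes. These were TCF7, LEF1, TOX, IKZF1 and RUNX3 with lower values and BCL11B with higher values, TCF7, IKZF1 and BCL11B having missed the test in PF-382.

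Between the lines, LEF1, BCL11B, SATB1, TOX, IKZF1 and IKZF3 were higher in PF-382 than in MOLT-14 and passed the test, and 0 members were called lower. Of 20100 genes tested 47.6% were called, 22.4% higher and 25.2% lower in PF-382, so 6 of 10 called higher is above the share of all genes. The members were chosen with earlier results of these data known, so this is a description. The same 6 members had no overlap between the lines, as 56.5% of all genes did, 26.3% with PF-382 higher and 30.2% with it lower. Upper-quartile scaling set the median of all genes at -0.23 and called 5 members higher. The members' median log2 difference was 0.74, against -0.08 over all genes. The comparison sets 5 libraries of 1 line against 2 of the other, and what differs is a line and not a treatment. SATB1 stood furthest apart, at 162.0 to 244.0 CPM in PF-382 and 48.06 and 55.71 CPM in MOLT-14 (log2 difference 1.95 ± 0.20, adjusted p 0.000236, 3.86-fold). BCL11B was 414.3 to 628.1 CPM in PF-382 and 213.0 and 257.1 CPM in MOLT-14 (1.10 ± 0.18, adjusted p 0.00174). IKZF1 (0.77 ± 0.15), TOX (0.74 ± 0.14) and LEF1 (0.74 ± 0.20) were each about 1.7-fold higher in PF-382 (adjusted p 0.00361, 0.00299 and 0.0153). LEF1 lost the call without the STAG2-transduced library (adjusted p 0.0642). These directions hold for CPM and not for the deposited TPM, in which LEF1 and IKZF1 were lower in every PF-382 library than in both MOLT-14 libraries, BCL11B, TOX and IKZF3 overlapped between the lines, and SATB1 was higher in every PF-382 library.

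The low IKZF3 was called higher in PF-382 (1.71 ± 0.53, adjusted p 0.0297), a call lost in 4 of the 7 fits that left out a library, without the second or the third knockout, the second wild-type or the STAG2-transduced library. The log2 difference over these fits was 1.05 to 2.69, and it moved by over 1.5 times in fold when either MOLT-14 library was left out. TCF7 (0.25 ± 0.20, adjusted p 0.321), IKZF2 (0.10, adjusted p 0.734), RUNX3 (0.43, adjusted p 0.184) and TOX2 (-1.24 ± 0.73, adjusted p 0.190) did not pass. For TOX2 the difference rested on the STAG2-transduced library, and it was 0.13 without it.

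Levels of different genes were compared by TPM (transcript abundance corrected for transcript length), as deposited. LEF1 ranked first and TCF7 second among the members in all 7 libraries, and IKZF3 ranked last in all 7. LEF1 was 104 to 210 TPM in PF-382 and 211 and 235 TPM in MOLT-14, above 97.9% to 99.0% of protein-coding genes. TCF7 was 67.3 to 122 TPM in PF-382 and 155 and 159 TPM in MOLT-14. IKZF1 (28.6 to 39.1 TPM in PF-382, 41.6 and 47.4 TPM in MOLT-14), SATB1 (26.1 to 40.0 TPM) and BCL11B (18.3 to 38.8 TPM) overlapped in PF-382, so their order there is not fixed. IKZF2 ranked 4th in both MOLT-14 libraries, at 34.9 and 45.4 TPM, and 6th or 7th in PF-382, at 11.4 to 15.7 TPM. TOX was 9.68 to 15.6 TPM in PF-382, overlapping IKZF2, and RUNX3 and TOX2 lay below 4 TPM in every library. Of the 3 members called lower in knockout by counts, RUNX3 was 0.67 to 0.78 TPM in knockout, against 0.95 and 1.85 TPM in wild type. LEF1 (104 to 169 TPM in knockout, 131 and 210 TPM in wild type) and TOX (9.68 to 12.7 TPM in knockout, 11.6 and 15.6 TPM in wild type) overlapped between the groups in TPM.

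IKZF2 thus stood apart between the lines in TPM while its CPM did not pass the test, and TCF7 did likewise, lower in every PF-382 library in TPM. Counts and FPKM of a library together give the effective transcript length that the authors' quantification assigned to a gene, a check chosen after the values were seen. For IKZF2 it was 4771 to 5250 bases in the PF-382 libraries and 3086 and 3445 bases in MOLT-14, a ratio of means of 1.57. For LEF1 it was 1909 to 2061 bases in PF-382 and 1419 and 1551 bases in MOLT-14, a ratio of 1.33. SATB1 and IKZF1 had a ratio of 1.19 each. BCL11B (0.993), TOX (0.995) and TCF7 (1.05) had ratios near 1. TOX and TCF7 still differed between the measures. TOX means were 108 CPM in PF-382 and 66.5 CPM in MOLT-14, against 11.85 and 13.6 TPM. Those of TCF7 were 481 and 417 CPM, against 93.1 and 157 TPM. The CPM values were divided by TMM factors, 1.12 and 1.26 in MOLT-14 and 0.901 to 0.981 in PF-382, and the deposited TPM was used without them. Small RNA genes took 9.27% of MOLT-14 counts with STAG2 and 4.87% with the empty vector, less than in any PF-382 library. The parts of scaling and of small RNA genes in the gap were not tested. Among 8793 protein-coding genes of at least 5 CPM in every library the median ratio was 1.01, 13.1% had a ratio of at least 1.2 and 2.68% of at least 1.5. In that set were 7 members, of which 2 had at least 1.2 and 1 at least 1.5, and 5 were longer in every PF-382 library than in both MOLT-14 libraries, against 26.6% of the set. IKZF3 had a ratio of 1.50, but its FPKM values are small and given to 2 decimals, which limits that value. The lengths did not differ by more than 1.06-fold between knockout and wild-type means for IKZF2, and the files do not say which transcripts were used.

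**Figure D4:**
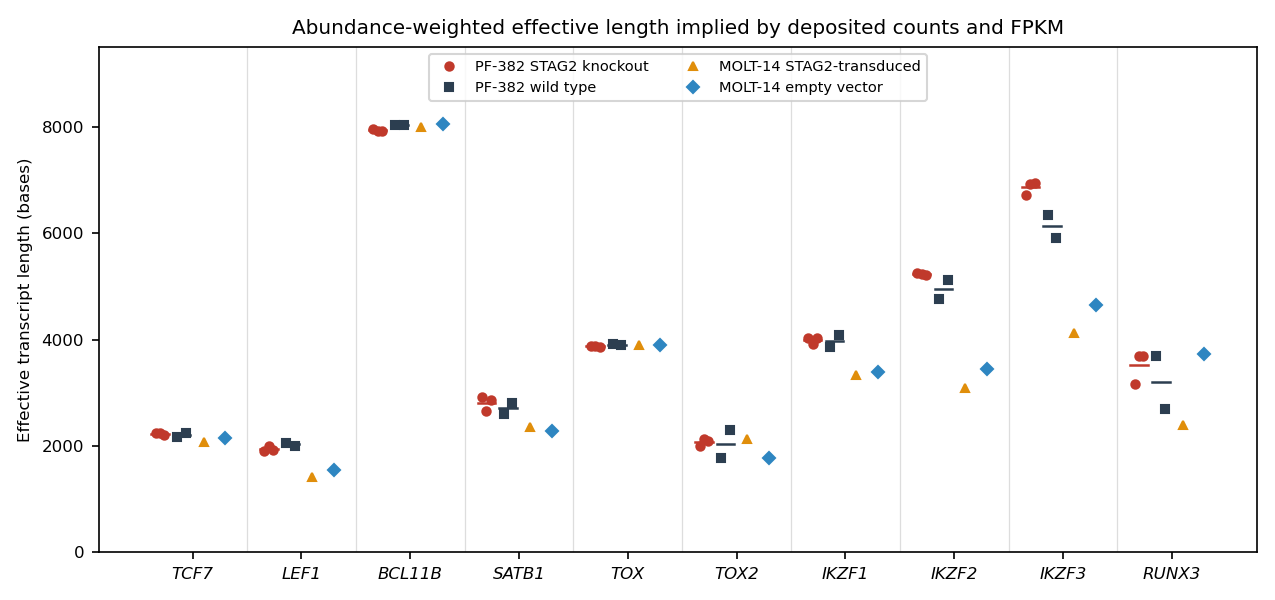
Effective transcript length in bases of each member in each library, as implied by the deposited counts and FPKM, with points for libraries and short lines for means of the PF-382 groups, and with PF-382 STAG2 knockout, PF-382 wild type, MOLT-14 with STAG2 and MOLT-14 with the empty vector from left to right. IKZF2 and LEF1 are longer in every PF-382 library than in both MOLT-14 libraries, and BCL11B and TOX are level.

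For each member with a mean of at least 1 CPM, the genes most like it were those with the smallest root-mean-square difference of centred log2 CPM over the 7 libraries, among 10144 protein-coding genes of at least 5 CPM. IKZF1 lay closest to ZFAND1 (0.04) and PTDSS1, and TOX to FAM72D (0.06) and COG7. LEF1 also had FAM72D first (0.10), then MFHAS1. BCL11B lay closest to GK5 (0.06) and LRRC58, TCF7 to MND1 (0.08) and CENPE, and SATB1 to ZNF92 (0.10) and ZMYM1. IKZF2 lay closest to PARS2 (0.10) and WDR91, and RUNX3 to ST3GAL5 (0.07) and INSIG1. TOX2 (ADGRG1, 0.57, then SASH3) and IKZF3 (GRASP, 0.29, then MTMR8) had no close neighbour by this measure. Among the members themselves, TOX and IKZF1 were 0.08 apart and LEF1 and TOX 0.10. The 7 libraries share lines and depth, so likeness here is a description.

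Of 11 family paralogues and partners 9 were tested in PF-382, with 1 called higher and 2 lower, at a median log2 change of -0.06. That is 33.3% called, near the 30.4% of all genes. TOX4 rose to 102 ± 5.22 CPM in knockout (SD, n = 3), against 71.1 ± 1.28 CPM in wild type (SD, n = 2; log2 change 0.50, adjusted p 0.0181), the opposite sign to TOX, but the call was lost without each knockout library. RUNX1, a RUNX factor of early T cells, fell to 220 ± 17.6 CPM in knockout, against 313 ± 3.29 CPM in wild type (-0.53, adjusted p 0.0217), lost without the second or the third knockout library. BCL11A, a B-lineage and progenitor relative of BCL11B, was 10.4 ± 5.42 CPM in knockout and 53.7 ± 50.3 CPM in wild type, where 1 library had 89.3 and the other 18.2 CPM (-2.39, adjusted p 0.0406). It lost the call without any 1 knockout library or the first wild-type library, at -0.82 without the last of these. CBFB, the partner of RUNX proteins (187 CPM in knockout and 165 CPM in wild type), IKZF5 (13.3 and 13.7 CPM), IKZF4 (1.41 and 0.616 CPM), TCF7L2 (5.97 and 4.34 CPM) and TCF7L1 (0.151 and 0.222 CPM) did not pass. RUNX1 was also higher in PF-382 than in MOLT-14 (log2 difference 1.34, adjusted p 0.0005), as were CBFB (0.95, adjusted p 0.0153) and BCL11A (2.62, adjusted p 0.0494).

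Of 30 other genes of the early T-lineage network tested, 5 were higher and 11 lower in knockout, at a median log2 change of -0.39. That is 53.3% called, against 30.4% of all genes, of which 15.8% were higher and 14.6% lower. This list and those after it were chosen with earlier results of these data known, so their shares are descriptions and carry no test. ID3, an inhibitor of E proteins, averaged 72.0 ± 16.3 CPM in knockout (SD, n = 3) and 18.1 ± 0.296 CPM in wild type (SD, n = 2; log2 change 1.96, adjusted p 0.00325), and ID1 rose too (2.19, adjusted p 0.0141). RORA fell to 1.47 ± 0.491 CPM in knockout, against 26.9 ± 8.05 CPM in wild type (-4.22, adjusted p 0.00218), as did BACH2, a repressor of effector genes (-2.71, adjusted p 0.00372), and the progenitor factors LMO2 (-1.72, adjusted p 0.0076) and MYB (-0.95, adjusted p 0.0078). NOTCH1 (0.30, adjusted p 0.233) and TCF12, an E protein, did not pass. TCF3, another E protein, was called higher in knockout (0.43, adjusted p 0.0363).

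Of 22 partners and targets of TCF7 and LEF1 tested, 1 was higher and 7 were lower, at a median of -0.01. That is 36.4% called, against 30.4% of all genes, of which 14.6% were lower. TLE4, a Groucho corepressor, fell to 21.5 ± 4.39 CPM in knockout (SD, n = 3), against 42.4 ± 0.468 CPM in wild type (SD, n = 2; -1.01, adjusted p 0.0112). NKD2, a Wnt antagonist, fell to 5.06 ± 0.836 CPM in knockout, against 15.8 ± 3.20 CPM in wild type (-1.67, adjusted p 0.00506). ZNRF3, a ubiquitin ligase that removes Wnt receptors, rose to 12.8 ± 1.76 CPM in knockout, against 5.33 ± 0.336 CPM in wild type (1.23, adjusted p 0.00779). CTNNB1, which encodes beta-catenin (278 CPM in knockout and 221 CPM in wild type, adjusted p 0.160), and TLE5 (0.22, adjusted p 0.186) did not pass.

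Among 28 subunits of the corepressor complexes that Ikaros, BCL11B and SATB1 bind, 7 were higher and 0 lower, at a median of 0.16. That is 25.0% called, below the 30.4% of all genes in either direction. The count of those called higher is 7 of 28, against 15.8% of all genes. HDAC1 averaged 368 ± 34.7 CPM in knockout (SD, n = 3) and 162 ± 29.5 CPM in wild type (SD, n = 2; log2 change 1.16, adjusted p 0.00571). GATAD2A (0.76, adjusted p 0.00708) and MBD3 (0.99, adjusted p 0.00961), subunits of the NuRD complex, rose as well. CTBP2 was also called (5.90, adjusted p 0.0213), a call lost without the first knockout library or either wild-type library. RBBP4 (735 CPM in knockout and 607 CPM in wild type) and the NuRD helicase CHD4 (577 and 533 CPM) did not pass.

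Of 28 T-lineage genes downstream in thymocytes, 3 were higher and 2 lower, at a median of 0.06. That is 17.9% called, below the 30.4% of all genes. CD8B averaged 2.83 ± 0.0409 CPM in knockout (SD, n = 3) and 0.237 ± 0.107 CPM in wild type (SD, n = 2; log2 change 3.53, adjusted p 0.00317). The chemokine receptor CCR9 rose to 349 ± 39.7 CPM in knockout, against 143 ± 24.2 CPM in wild type (1.26, adjusted p 0.00532). CD5 fell to 54.7 ± 3.47 CPM in knockout, against 104 ± 11.0 CPM in wild type (-0.95, adjusted p 0.0041). CD3D (-0.52, adjusted p 0.0992) did not pass. CCR7, called higher (2.35, adjusted p 0.0312), lost the call without the second or the third knockout library or the second wild-type library. DNTT, called lower (-2.33, adjusted p 0.0278), lost it without the second knockout or the second wild-type library.

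Markers of other blood cells were low. The highest marker of each set is named by its mean over all 7 libraries. Summed over 7 B-lineage markers the level was 4.44 to 19.8 CPM in knockout, 9.68 to 41.9 CPM in wild type and 30.6 to 42.5 CPM in MOLT-14, with CD79A highest, MS4A1 at 0 and 5 of 7 under 1 CPM. Over 7 myeloid markers it was 0.127 to 0.232 CPM in knockout, 7.50 to 8.09 CPM in wild type and 8.86 to 14.7 CPM in MOLT-14. ELANE was at 0 and 5 of 7 were under 1 CPM. CEBPA was highest by the mean over both lines, but it did not pass the expression filter in PF-382. Of the myeloid markers only CD68 was tested there, and it was called lower in knockout (log2 change -6.32, edgeR). Natural killer markers were 13.5 to 16.1 CPM in knockout, 14.0 to 18.4 CPM in wild type and 21.5 to 22.9 CPM in MOLT-14, with NCAM1 highest and FCGR3A at 0. Erythroid and megakaryocyte markers were 0.218 to 0.324 CPM in knockout, 0.615 to 1.22 CPM in wild type and 0.451 to 0.617 CPM in MOLT-14, with HBB, ALAS2, PF4 and GP9 at 0. Stromal and epithelial markers were 7.45 to 10.1 CPM in knockout, 10.7 to 26.9 CPM in wild type and 1.15 to 1.31 CPM in MOLT-14, with KRT18 highest and COL1A2 at 0. The myeloid, erythroid and megakaryocyte, and stromal and epithelial sums were lower in every knockout library than in both wild-type libraries, as LEF1, TOX and RUNX3 were, and their part in those results was not tested. The B-lineage and natural killer sums overlapped between the groups.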

How the data were processed

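Total RNA libraries of 3 STAG2 knockout and 2 wild-type PF-382 samples and of 2 MOLT-14 samples were used. The submitters' processing notes name STAR, RSEM, GRCh38 and hg38, and the annotation release and strand setting are not given in the sources used here. The authors deposited expected counts (estimated and unscaled), TPM and FPKM for each gene, per the file headers. Of 60754 features, 92 ERCC spike-ins were left out.

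Expected counts were rounded (91.8% to 93.3% were whole to within 0.005) and tested in R 4.3.3 with edgeR 4.0.16 (TMM, filterByExpr, quasi-likelihood test, two-sided, Benjamini-Hochberg over all genes tested, threshold 0.05). Adjusted p-values come from this test except where DESeq2 is named. Knockout was compared with wild type over the 5 PF-382 libraries. PF-382 was compared with MOLT-14, and the STAG2 effects between lines, over all 7. The comparison of lines held an additive term for lower STAG2 (knockout and empty vector), which assumes the same effect in both lines. Without that term it called 5 members, all higher in PF-382. SEs come from the log2 change and F. CPM values use TMM totals over all 7 libraries, and 3 counts make 0.0347 to 0.0971 CPM. MOLT-14 ratios carry exact binomial intervals (95%) and no test. DESeq2 1.42.0, other scalings, filters, fits leaving out a library, the prefix term and a fit without small RNA genes (added after seeing the data) were alternatives.

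TPM was used as deposited by the authors for levels between genes, and FPKM as deposited for effective lengths. Positions come from GENCODE 29 (GRCh38) and promoters from RefSeq. The members and lists were chosen with earlier results of these data known. Named genes were the members, each detected paralogue, and from each other list up to 4 called genes with the smallest adjusted p in each direction and up to 2 abundant genes that did not pass. LEF1-AS1, SKP1 and TBC1D5 were added because they overlap members, and TCF3 because it is an E protein like TCF12. A few genes that the rule names are not reported here.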

Additional observations from a re-analysis of the deposited data

Results flagged for a closer look

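RORA, a nuclear receptor of the early T-lineage network, was called for a difference between the 2 lines in its change with lower STAG2, at a log2 difference of effects (PF-382 minus MOLT-14) of -4.25 (adjusted p 0.0478, edgeR, all 7 libraries). It was 1.05, 1.34 and 2.01 CPM in knockout, against 21.2 and 32.6 CPM in wild type, and 14.1 CPM in MOLT-14 with STAG2, against 14.7 CPM with the empty vector. Each MOLT-14 arm is 1 library assumed to vary like the PF-382 ones, and the test called 0 genes without any 1 knockout library. STAG2 itself differed in the same test by 5.80, its RNA being lower by far more in MOLT-14 with the empty vector than in the PF-382 knockout, under the same limits.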

How the results depend on the processing

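No paired analysis was possible because the labels carry no replicate numbers shared between groups. In PF-382, the 3 members and 5311 genes called became 5 members with upper-quartile scaling, and 0 members and 438 genes with the prefix term. Leaving out 1 library gave 0 to 3 members and 2271 to 6304 genes: 0 members and 2649, 2344 and 2271 genes without the first, the second and the third knockout library, and 1 member without the second wild-type library. The fits without small RNA genes and with RLE scaling called 3 members, DESeq2, the 1 CPM filter and the protein-coding set 4, and the unfiltered fit and the fit of all 7 libraries 2. Besides the members, 26 called genes were followed over the 5 fits that left out a library, and 18 kept their call in all of them. These were genes picked by the naming rule, not all described above, with STAG2 (lost in 2 fits) and LEF1-AS1 (kept). STAG1, TCF3 and CD68 were not in this count. The difference of STAG2 effects, called for 122 genes, was called for 73 with RLE scaling and for 0 without any 1 knockout library, 2296 without the first and 2125 without the second wild-type library, and for 0 members throughout. In MOLT-14, members past 2-fold numbered 2 in the protein-coding set.

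Signs turned for values not called in the full fit. CBFB (adjusted p 0.0204) and RBBP4 (0.0105) were called higher without the second wild-type library. In PF-382, IKZF2 was -0.15 with upper-quartile scaling, -0.067 with the 1 CPM filter, -0.078 in the protein-coding set, -0.20 with the prefix term and -0.27 to 0.44 when a library was left out. IKZF3 was -0.49 to 0.066 and RBBP4 -0.10 to 0.75 when a library was left out. CBFB was -0.0063 with upper-quartile scaling and -0.21 to 0.67 over leave-outs, and CHD4 was -0.073 with that scaling, -0.0064 in the protein-coding set and -0.13 to 0.39 over leave-outs. IKZF5 was 0.013 unfiltered, 0.28 with the prefix term and -0.28 to 0.12 over leave-outs, TCF12 was 0.013, 0.067 and -0.14 to 0.040, and LCK was 0.013 unfiltered. Between the lines, IKZF2 was -0.052 with upper-quartile scaling, -0.0034 with the 1 CPM filter, -0.0089 in the protein-coding set and -0.085 to 0.21 over leave-outs, and TOX2 was -2.37 to 0.13. The difference of effects over leave-outs was -0.10 to 0.15 for BCL11B and -0.25 to 0.46 for IKZF2. In MOLT-14, IKZF2 was -0.14 with total-count scaling. The cause was not tested. With 2 wild-type libraries and 1 of each MOLT-14 kind, small differences are not resolved.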
